A study of Mus musculus with 4 samples.

Results

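The genes described here encode the proteins of the mitochondrial ribosome, taken as every gene whose symbol begins with Mrpl or Mrps followed by a digit. Of 30142 genes tested on the arrays, 79 met this rule, 75 of them protein-coding and 4 pseudogenes (Mrpl23-ps1, Mrpl48-ps, Mrps36-ps1 and Mrps36-ps2). RNA came from the CD45-negative cells of the lung, that is, cells without the surface marker of leukocytes, of C57BL/6 mice. The mice had received phosphate-buffered saline (PBS) or bleomycin (BLM), an antibiotic that breaks DNA and scars the lung, into the trachea 10 days before. There were 4 arrays, 2 for PBS and 2 for BLM, and the labels give no age or sex and do not say whether animals were pooled. Whether replicate arrays stand for different animals is not stated, so the p-values reflect only how far these samples differ, and that spread may be technical.

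Mitochondria keep ribosomes of their own, with a large and a small subunit, which translate the few proteins encoded by mitochondrial DNA, all of them parts of the respiratory chain and ATP synthase. The RNA of these ribosomes is made in the mitochondrion, but their proteins are encoded in the nucleus, made in the cytosol and imported, so every gene below is a nuclear gene. Many of the proteins descend from those of bacterial ribosomes, while others are found in mitochondria only. Most Mrpl genes encode proteins of the large subunit and most Mrps genes proteins of the small one, but Mrps18a and Mrps30 encode proteins that sit in the large subunit, and the product of Mrps36 is now assigned to the 2-oxoglutarate dehydrogenase complex.

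Mitochondrial ribosomal protein genes stood mostly higher on the BLM arrays, by modest amounts. In the limma fit across all genes, 44 of the 79 rose and 1 fell at an adjusted p of 0.05, while 15.2% of all genes tested rose and 10.1% fell. The 44 rose by 0.32 to 1.23 on the log2 scale, that is, 1.25-fold to 2.34-fold. Members called at 2-fold or more were 2 of 79, or 2.53%, against 5.14% of all genes. The median difference was 0.37 over the members, with the middle part of them (25th to 75th percentile) between 0.18 and 0.61, and 0.05 over all genes. Both BLM arrays lay above both PBS arrays for 67 of the 79, compared with 38% of all genes, and below them for 4, compared with 25.3%.

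The direction held more widely than the calls. Differences were above 0 for 72 of the 79, compared with 58.1% of all genes, and of the 34 members that did not pass, 28 stood above 0 and 6 below. The number of members that rose was 14 with BLM replicate 1 left out and 23 with BLM replicate 2 left out, where 7.74% and 8.92% of all genes rose. It was 24 without PBS replicate 1 and 29 without PBS replicate 2, against 11.2% and 11.7% of all genes. No member fell in these 4 limma fits, where 7.81% (without PBS replicate 1), 8.08% (PBS replicate 2), 5.54% (BLM replicate 1) and 5.6% (BLM replicate 2) of all genes fell. In these 4 fits the members' median stayed between 0.36 and 0.43. Of the 44 calls, 13 held in each of these 4 fits and 9 in none of them. With cyclic loess scaling, 33 members rose and 3 fell, against 12.7% and 12.9% of all genes, and the share of calls that were higher over all genes moved from 60.1% to 49.6%. Calls are more frequent among brighter genes, and most members are bright. With genes below the median level left out, 45 of 76 members rose, against 31.5% of the genes kept. With the mean of a gene's rows the count was 44, against 15.1% of all genes. No member had a second row of its own, so this alternative left the members' values unchanged and could hardly alter their calls.

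**Figure D1:**
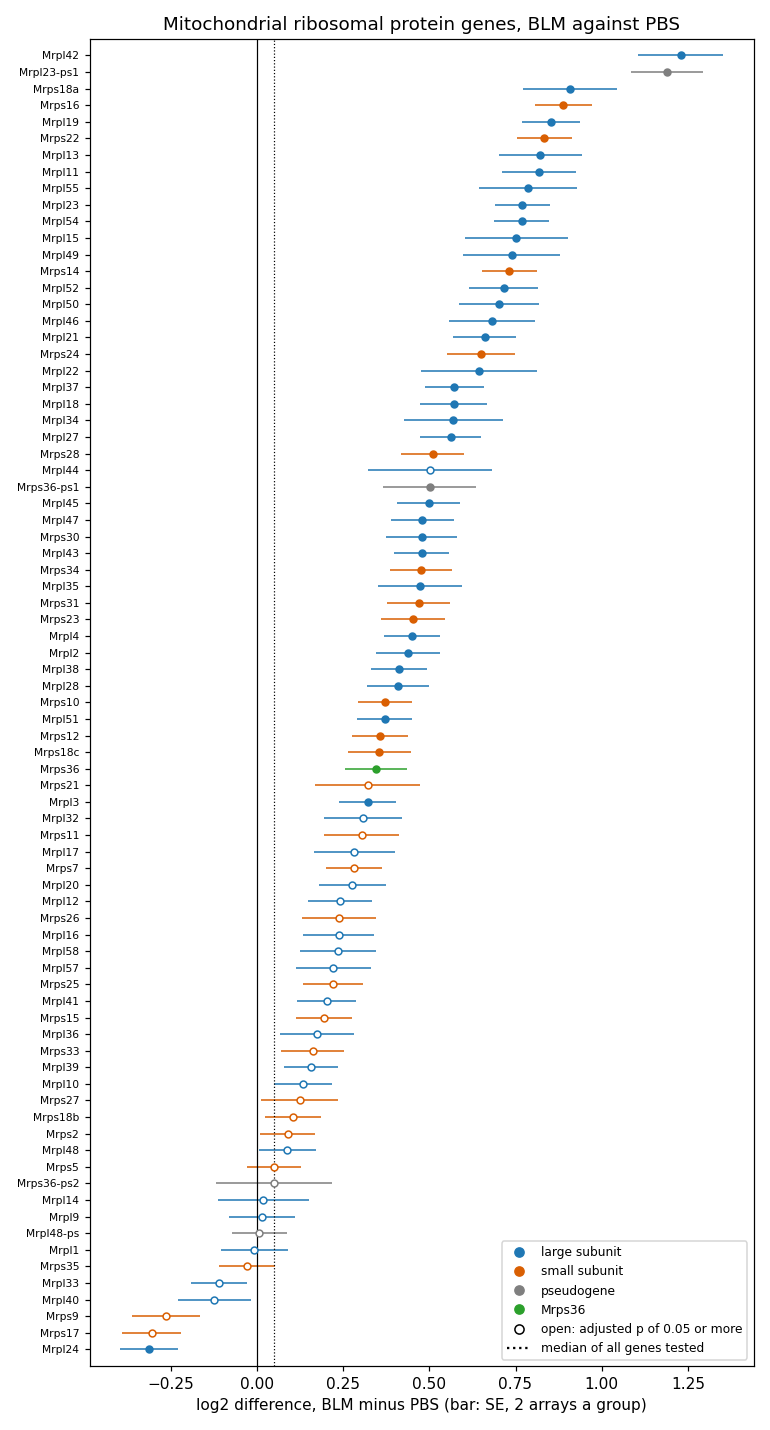
Log2 difference, BLM minus PBS, of the 79 members with its standard error (2 arrays a group), coloured by the subunit the protein sits in; filled points passed an adjusted p of 0.05 and the dotted line marks the median of all genes, 0.05. Mrpl42 stands at the top at 1.23 and Mrpl24 at the bottom at -0.31.

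Other features of the cells moved on the same arrays. Of 12 markers of leukocytes and macrophages, 8 rose and 1 fell, Lyz2, and their mean log2 level was 7.42 and 7.43 on PBS against 8.15 and 8.16 on BLM. Ptprc, which encodes CD45 itself, was at 6.30 and 6.21 on PBS and at 7.19 and 7.20 on BLM (0.94, SE 0.08, adjusted p = 0.00166). Among 5 fibroblast markers 4 rose, with a mean level of 11.09 and 11.11 against 13.98 and 13.88, and Col1a1, a collagen chain, differed by 4.28 (SE 0.08). All 5 measured markers of ciliated cells fell, as did 3 of 3 of club cells and 5 of 6 of alveolar type 2 cells, whose surfactant gene Sftpc stood at 0.12. Of endothelial markers 2 of 5 rose, and of alveolar type 1 markers 1 of 4. Over all genes 15.2% rose and 10.1% fell. The endothelial Kdr, at 0.425, lost its call with the replicate block, with cyclic loess and in every fit that left an array out. Itgam, of the leukocyte markers, lost its call in the same fits but for cyclic loess. Of 7 genes of cycling cells none passed the limma test, and 2 stood higher at an unadjusted p under 0.05. The proliferation marker Mki67 was at 12.92 and 12.66 on PBS and at 12.58 and 12.57 on BLM. The part of these shifts in the members' differences was not tested, and in bulk RNA fewer cells of a type and less RNA per cell cannot be told apart. Xist, which silences an X chromosome in females, read 15.86 and 15.61 on PBS and 5.60 and 5.43 on BLM. The labels give no sex. Treatment and a difference of sex between the groups thus cannot be told apart for any gene reported here. None of the 79 members lies on the X or Y chromosome in the RefSeq table, but this position does not separate sex from treatment.

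The highest rise was that of Mrpl42, a protein of the large subunit found in mitochondria and not in bacteria. Its log2 level was 9.86 and 10.16 on PBS and 11.28 and 11.19 on BLM. The difference was 1.23 (SE 0.12, adjusted p = 0.00236), or 2.34-fold, and the groups lay well apart. Mrps18a, the large-subunit member of a trio of related genes, was at 7.47 and 7.81 against 8.62 and 8.47, a rise of 0.91 (SE 0.14, adjusted p = 0.00816). Mrpl19, whose protein descends from a bacterial one of the same subunit, rose by 0.85 (SE 0.08), from 7.45 and 7.36 to 8.23 and 8.28. Mrpl13 rose by 0.82 (SE 0.12), from 8.11 and 8.41 to 9.07 and 9.10. Mrpl11, part of the stalk base where translation factors bind, rose by 0.82 (SE 0.11), from 7.31 and 7.36 to 8.27 and 8.04. For each of these 5 genes the lower BLM array exceeded the higher PBS array, and each kept its call under every alternative run.

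Of the other large-subunit genes, Mrpl23, near the exit of the peptide tunnel, was at 7.19 and 7.17 on PBS and at 7.93 and 7.97 on BLM, with a rise of 0.77 (SE 0.08, adjusted p = 0.00257). Mrpl55 rose by 0.79 (SE 0.14), from 8.30 and 8.67 to 9.33 and 9.21, and was no longer past the threshold with BLM replicate 1 left out (adjusted p = 0.071). Mrpl54, Mrpl52 and Mrpl21 rose by 0.77, 0.72 and 0.66 and kept their calls under every alternative, as Mrpl23 did. These 3 lie outside the rule for named genes and were chosen after their values were seen, for that reason. The large subunit as a whole had 49 measured genes, of which 30 rose (61.2%), 1 fell (2.04%) and 18 did not pass. Of all genes 15.2% rose and 10.1% fell. The median difference of the large-subunit genes was 0.47. With each array left out in turn, fewer of these genes rose, and the fewest without BLM replicate 1.

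In the small subunit 11 of 25 genes rose (44%), where 15.2% of all genes rose, and 14 did not pass. None fell in the limma fit, though 2 stood lower at an unadjusted p under 0.05. The median difference was 0.30. With each array left out in turn, fewer genes of the small subunit rose, and the fewest without BLM replicate 1. Mrps16, a protein of bacterial descent, was at 8.34 and 8.32 on PBS and at 9.17 and 9.26 on BLM, a rise of 0.89 (SE 0.08, adjusted p = 0.00192). Mrps22, found in mitochondria only, was at 7.82 and 7.81 against 8.67 and 8.62, a rise of 0.83 (SE 0.08, adjusted p = 0.0021). In both genes the arrays of a group differed by less than 0.1 log2 units, and both calls held under every alternative, as did that of Mrps14, at 0.73 (SE 0.08), which was named after its values were seen. The difference between the 2 subunits was not tested.

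Members can also be split by descent. Of 46 bacterial-type genes 25 rose and 1 fell, with a median of 0.36, and of 28 mitochondria-specific genes 16 rose, none fell and 12 did not pass, with a median of 0.46 (none lower at an unadjusted p under 0.05 either). These are 54.3% and 57.1%, where 15.2% of all genes rose. Without BLM replicate 1 the counts were 9 of 46 (19.6%) and 4 of 28 (14.3%), where 7.74% of all genes rose. They were 14 and 8 without BLM replicate 2, 15 and 8 without PBS replicate 1, and 14 and 13 without PBS replicate 2, so the order of the 2 shares changed with the array left out. The difference between them was not tested. Split further, 18 of 30 bacterial-type and 12 of 19 mitochondria-specific genes rose in the large subunit, and 7 of 16 and 4 of 9 in the small one.

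**Figure D2:**
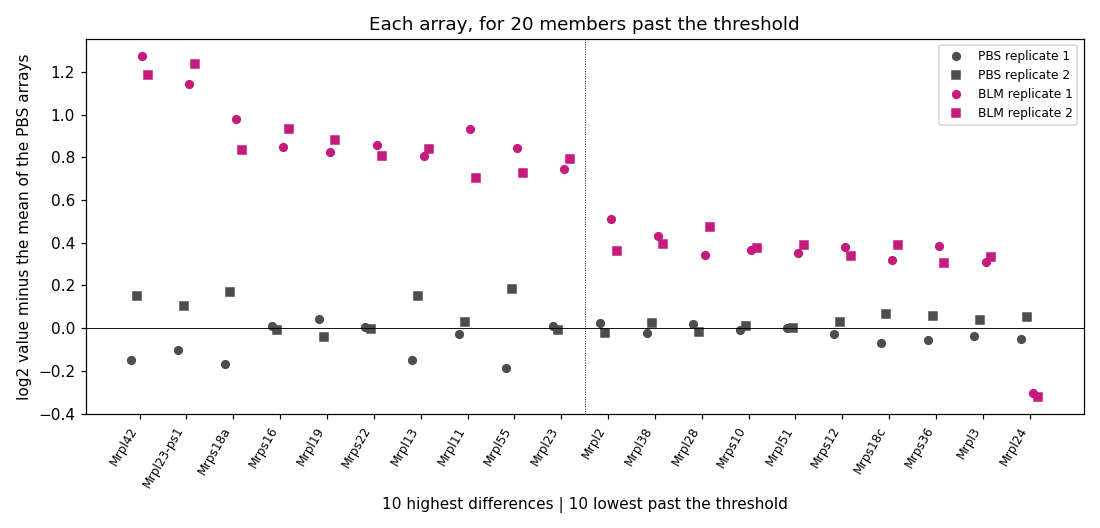
Log2 value of each array minus the mean of the PBS arrays, for the 10 highest differences and the 10 lowest past the threshold. Circles are replicate 1 and squares replicate 2, grey for PBS and magenta for BLM; in every gene shown the groups do not overlap, and only Mrpl24 lies below.

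Mrpl24, a protein at the exit of the peptide tunnel, was the member that fell. Its level was 12.20 and 12.29 on PBS against 11.94 and 11.92 on BLM, at a difference of -0.31 (SE 0.08, adjusted p = 0.0488). The groups did not overlap, but the call ended in all 4 fits that left an array out, with adjusted p of 0.0756 and 0.144 without PBS replicates 1 and 2 and of 0.184 and 0.194 without BLM replicates 1 and 2. The small-subunit gene Mrps17 stood at a like distance, at 10.69 and 10.74 against 10.36 and 10.45 (-0.31, SE 0.08, adjusted p = 0.0539). Mrps9 was at 9.36 and 9.40 against 9.21 and 9.02 (-0.26, SE 0.10, adjusted p = 0.117). Both passed with cyclic loess scaling (adjusted p = 0.0172 and 0.0386), and Mrps17 also with dim genes left out (0.0212) and with the trended robust prior (0.0315). Mrps17 and Mrps9 were named after their values were seen.

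The smallest rises past the threshold, from 0.32 to 0.44, were those of 9 genes. Mrpl2 and Mrpl3, which lie near the catalytic centre, rose by 0.44 (SE 0.09, adjusted p = 0.0231) and 0.32 (SE 0.08, adjusted p = 0.0421). Mrpl2 was at 10.96 and 10.91 against 11.45 and 11.30, and Mrpl3 at 9.09 and 9.16 against 9.43 and 9.46. Mrps12, at the decoding centre of the small subunit, was at 8.91 and 8.96 against 9.31 and 9.27, a rise of 0.36 (SE 0.08, adjusted p = 0.0291). Mrpl28, Mrps10 and Mrpl51 rose by 0.41, 0.37 and 0.37. The calls of these 6 genes ended in all 4 fits that left an array out (highest adjusted p 0.181, for Mrpl3 without BLM replicate 2), those of all but Mrps10 also with cyclic loess, and that of Mrpl3 also with median centring. Mrpl38, which rose by 0.41, was no longer past the threshold with PBS replicate 1 left out (adjusted p = 0.067), or likewise BLM replicate 1 (0.112) or BLM replicate 2 (0.0858).

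The trio Mrps18a, Mrps18b and Mrps18c descends from a single bacterial ribosomal protein, and the products take different places in the ribosome. Mrps18a rose by 0.91, with a 95% interval of 0.56 to 1.25. Mrps18c was at 10.86 and 10.996 on PBS and at 11.25 and 11.32 on BLM, a rise of 0.36 (95% interval 0.13 to 0.59, adjusted p = 0.0423). Its call ended in all 4 fits that left an array out (adjusted p 0.0562 to 0.189), with median centring (0.0623) and with cyclic loess (0.185). Mrps18b was at 7.56 and 7.49 against 7.65 and 7.61, a difference of 0.11 (95% interval -0.10 to 0.31, adjusted p = 0.416). The intervals of Mrps18a and Mrps18b do not overlap, and the differences between the 3 genes were not tested.

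Among other genes with known roles, Mrpl12, the flexible stalk protein that contacts translation factors, was at 6.04 and 5.95 against 6.17 and 6.31, a difference of 0.24 (SE 0.09, adjusted p = 0.126). Mrpl44, which has a fold related to that of RNase III, was at 6.22 and 6.18 on PBS and at 6.96 and 6.44 on BLM. Its difference of 0.50 had the widest error of the members (SE 0.18, adjusted p = 0.105) and passed without BLM replicate 2, at 0.77 (adjusted p = 0.02). Mrpl41 and Mrpl36 stood at 0.20 and 0.17, both at levels below the median of all genes, and neither passed. Mrps34 and Mrps30 rose, each by 0.48, and both lost their calls without PBS replicate 1 (adjusted p = 0.0592 and 0.0785), BLM replicate 1 (0.0777 and 0.0808) or BLM replicate 2 (0.0888 and 0.12). Mrps36 rose by 0.34 (SE 0.09, adjusted p = 0.044), a call that ended in all 4 fits that left an array out (adjusted p 0.0648 to 0.211), with median centring and with cyclic loess.

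Of the 4 pseudogenes 2 rose. Mrpl23-ps1 was at 9.17 and 9.37 on PBS and at 10.41 and 10.51 on BLM, a rise of 1.19 (SE 0.10, adjusted p = 0.00163), beside 0.77 for Mrpl23. Mrps36-ps1 rose by 0.50 (adjusted p = 0.049), and was no longer past the threshold without PBS replicate 1, BLM replicate 1 or BLM replicate 2 (adjusted p = 0.12, 0.109 and 0.185), with median centring or with cyclic loess. Signals of a gene and of a near-identical copy cannot be told apart on such arrays, so the values of these pairs are uncertain. With the pseudogenes left out, 42 of 75 members rose and the median was the same, 0.37.

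Position was examined through the start sites in RefSeq (GRCm38.p6), which held a promoter for 66 of the 79 members. For 21 of these a tested gene starts on the opposite strand within 500 bases upstream, an arrangement called head to head. Such pairs are transcribed away from a shared stretch of DNA. Among the 19 pairs with a gene outside the set, the median difference was 0.44 for the members and 0.16 for their neighbours. The member rose in 12 of them and the neighbour in 4, where 15.2% of all genes rose. In 2 pairs both rose, in 10 only the member passed, in 2 only the neighbour and in 5 neither. Fewer of the members in these 19 pairs rose in each fit that left an array out, and the fewest without BLM replicate 1. There the share of these members that rose came nearest to the share of all genes. Mrpl21 rose by 0.66 while Ighmbp2, a helicase gene that starts 32 bases away, stood at -0.02 (SE 0.08, adjusted p = 0.893). Mrpl27 rose by 0.56, losing its call with BLM replicate 2 left out (adjusted p = 0.0603), and Eme1, a DNA endonuclease subunit 48 bases away, stood at 0.01 (SE 0.08, adjusted p = 0.925). Mrpl43 rose by 0.48, losing its call with BLM replicates 1 or 2 left out (0.0723 and 0.0623), and Twnk, the mitochondrial DNA helicase, stood at 0.16 (SE 0.09, adjusted p = 0.247). The neighbour alone passed for Mrpl32, at 0.31 (SE 0.11, adjusted p = 0.11), beside Psma2, a proteasome subunit, which rose by 0.60 (SE 0.09, adjusted p = 0.008). The same held for Mrps27, at 0.12 (SE 0.11, adjusted p = 0.484), beside Ptcd2, which rose by 0.37 (SE 0.08, adjusted p = 0.0291). The call of Psma2 ended with BLM replicate 1 left out. That of Ptcd2 ended in all 4 fits that left an array out and with the replicate block (adjusted p = 0.0539). A p that misses the threshold does not show that a gene was unchanged, and the differences within pairs were not tested.

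The 2 pairs that rose together were Mrpl49 with Fau, which encodes a cytosolic ribosomal protein, and Mrpl47 with Ndufb5, a subunit of respiratory complex I. Mrpl49 rose by 0.74 (SE 0.14) and Fau by 0.91 (SE 0.10), with Mrpl49 losing its call with BLM replicates 1 or 2 left out (adjusted p = 0.0696 and 0.0684). Mrpl47 and Ndufb5 rose by 0.48 and 0.50, and both lost their calls without BLM replicate 1 (0.0944 and 0.0718) or 2 (0.0746 and 0.0542), Mrpl47 also without PBS replicate 1 (0.0599). In 1 pair both genes are members: Mrpl46 and Mrps11 start 42 bases apart. Mrpl46 was at 8.22 and 8.25 against 9.08 and 8.76, a rise of 0.68 (SE 0.12, adjusted p = 0.015) that was no longer past the threshold with PBS replicate 1 left out (0.0591), or likewise PBS replicate 2 (0.0522) or BLM replicate 1 (0.0549). Mrps11 was at 6.72 and 6.90 against 7.03 and 7.19, a difference of 0.30 (SE 0.11, adjusted p = 0.103).

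The promoters, from 250 bases before to 50 after the start, were searched on both strands for 6 motifs of factors known to act on genes of mitochondrial proteins or on many promoters. The motif of the factor NRF1 was found in 12 of the 66 members (18.2%) and in 5.19% of all 27025 genes with a promoter in the table. CCGGAAGT, of ETS factors such as GABP, was also found in 12 (18.2%), against 4.31%, and AAGATGGC, of YY1, in 12 (18.2%), against 3.19%. The motif shared by THAP11 and ZNF143 was found in 5 (7.58%), against 2.08%. The E-box CACGTG was found in 5 (7.58%) and CCAAT in 26 (39.4%), against 8.09% and 41.1%. No motif holds the letters of another, but a promoter can hold several motifs.

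Among the members with an NRF1 match 1 of 12 rose, Mrpl45, and their differences ran from -0.26 to 0.50 with a median of 0.24. Of the 54 with no such match 33 rose, with a median of 0.39. Over all tested genes the order was the other way, with 19.9% of those holding the match and 16.4% of those with any promoter in the table rising. The split of the members was seen after their values were known and has no test. The count among the 12 stayed at 1, Mrpl45, in the other fits on all arrays. Without PBS replicate 2 Mrpl45 again passed alone. Without BLM replicate 2 it lost its call and Mrpl44 passed instead, at 0.77. Without PBS replicate 1 or BLM replicate 1 no member with the match passed. Fewer of the 54 rose in each of the fits that left an array out. Members with an ETS match rose in 8 of 12 cases (66.7%), beside 48.1% of the members without it and 22.6% of all tested genes that hold it. For YY1 it was 7 of 12 (58.3%), beside 50% and 20.6%. For THAP11 and ZNF143 it was 4 of 5 (80%), beside 49.2% and 19.7%, while the fifth, Mrpl24, fell. The E-box and CCAAT leaned the same way with all arrays in the fit, but not in every fit that left an array out. For the E-box it was 3 of 5 (60%), beside 50.8% and 18.9%. For CCAAT it was 15 of 26 (57.7%), beside 47.5% and 16.1%. In each fit that left an array out, fewer members with an ETS, YY1, E-box or CCAAT match rose. Of those with a THAP11 and ZNF143 match, fewer rose in each of these fits but that without PBS replicate 1. Without BLM replicate 2, the share that rose was no longer higher for members with an ETS match than for those without it. For the E-box the order was reversed in every fit that left an array out, and for CCAAT in that without PBS replicate 1. These differences between members with and without a motif were not tested.

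**Figure D3:**
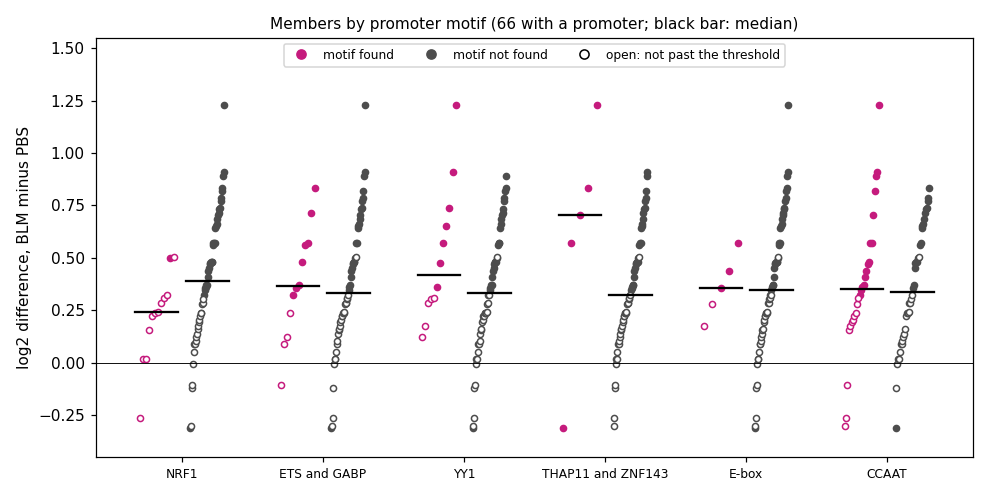
Log2 difference, BLM minus PBS, of the 66 members with a promoter, split for each of 6 motifs into those that hold it (magenta) and those that do not (grey); filled points passed an adjusted p of 0.05 and black bars are medians. For NRF1 the only filled magenta point is Mrpl45, at 0.50.

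Promoters of all 5 members with a THAP11 and ZNF143 match are shown, since they include the highest rise and the only fall, from 150 bases before the start to the first 30 bases from it (RefSeq, GRCm38.p6, 5′ to 3′ along the gene). Capitals mark every match to the 6 motifs in this window, which include a CCAAT of Mrpl50 at -17. The match of Mrpl42 begins at position -45 and that of Mrps22 at -49, counted from the start, while the match of Mrpl24 lies farther out, at -137. Mrpl50 and Mrpl34 hold 2 matches each, at -143 and -82 and at -47 and -13. Mrps22 also holds an ETS match at -11. A match is a description of these letters and not of a bound site. Mrpl42 is at chr10:95501920-95502099 (minus strand), Mrps22 at chr9:98601650-98601829 (minus strand), Mrpl50 at chr4:49521054-49521233 (minus strand), Mrpl34 at chr8:71464776-71464955 (plus strand) and Mrpl24 at chr3:87919394-87919573 (plus strand).
Mrpl42: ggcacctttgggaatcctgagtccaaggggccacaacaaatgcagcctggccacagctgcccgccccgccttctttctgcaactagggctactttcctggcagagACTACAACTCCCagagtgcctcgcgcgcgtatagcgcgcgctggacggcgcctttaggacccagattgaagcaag
Mrps22: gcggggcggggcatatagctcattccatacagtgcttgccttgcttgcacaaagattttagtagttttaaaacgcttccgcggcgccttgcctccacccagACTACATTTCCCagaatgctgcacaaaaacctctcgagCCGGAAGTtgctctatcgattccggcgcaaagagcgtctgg
Mrpl50: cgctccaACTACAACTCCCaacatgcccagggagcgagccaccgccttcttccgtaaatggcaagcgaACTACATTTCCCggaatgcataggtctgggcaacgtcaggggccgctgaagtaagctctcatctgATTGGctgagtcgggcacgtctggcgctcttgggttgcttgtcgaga
Mrpl34: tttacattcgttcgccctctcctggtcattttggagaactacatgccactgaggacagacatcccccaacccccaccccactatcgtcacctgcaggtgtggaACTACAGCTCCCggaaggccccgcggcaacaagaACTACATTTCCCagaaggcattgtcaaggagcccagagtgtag
Mrpl24: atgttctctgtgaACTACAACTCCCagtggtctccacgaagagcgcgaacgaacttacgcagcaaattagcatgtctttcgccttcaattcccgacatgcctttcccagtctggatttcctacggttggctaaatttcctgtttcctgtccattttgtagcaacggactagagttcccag

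Beside their differences, Mrpl50 was at 9.25 and 9.10 on PBS and at 9.99 and 9.76 on BLM, a rise of 0.70 (SE 0.12) that was no longer past the threshold with BLM replicate 1 left out (adjusted p = 0.0541). Mrpl34 was at 8.45 and 8.07 against 8.88 and 8.78, a rise of 0.57 (SE 0.14, adjusted p = 0.04) that ended with PBS replicate 2 left out (0.0791), or likewise BLM replicate 1 (0.156) or BLM replicate 2 (0.1) and with cyclic loess (0.0746).

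Of the members with an NRF1 match 4 are shown in the same way, the 1 that rose, the panel genes Mrpl44 and Mrpl12, and Mrps9, the lowest of the 12. Mrpl45, a protein that tethers the ribosome to the inner membrane, holds 3 matches, at -120, -38 and 16, and was at 8.15 and 8.29 against 8.68 and 8.75, a rise of 0.50 (SE 0.09, adjusted p = 0.015). It was no longer past the threshold with PBS replicate 1 left out (0.0558), or likewise BLM replicate 1 (0.0641) or BLM replicate 2 (0.0864). Mrpl44 holds 1 match, at -35, and Mrpl12 and Mrps9 hold 1 each, at -81 and -5, and Mrps9 also a CCAAT at -86. Mrpl45 is at chr11:97315566-97315745 (plus strand), Mrpl44 at chr1:79775868-79776047 (plus strand), Mrpl12 at chr11:120484487-120484666 (plus strand) and Mrps9 at chr1:42851083-42851262 (plus strand).
Mrpl45: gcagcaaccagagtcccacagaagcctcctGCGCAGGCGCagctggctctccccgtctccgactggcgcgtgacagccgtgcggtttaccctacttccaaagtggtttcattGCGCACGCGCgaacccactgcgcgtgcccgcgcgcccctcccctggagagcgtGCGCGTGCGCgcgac
Mrpl44: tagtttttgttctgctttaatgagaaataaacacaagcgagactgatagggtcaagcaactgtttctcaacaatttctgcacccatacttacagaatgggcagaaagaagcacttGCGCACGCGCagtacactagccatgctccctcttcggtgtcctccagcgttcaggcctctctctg
Mrpl12: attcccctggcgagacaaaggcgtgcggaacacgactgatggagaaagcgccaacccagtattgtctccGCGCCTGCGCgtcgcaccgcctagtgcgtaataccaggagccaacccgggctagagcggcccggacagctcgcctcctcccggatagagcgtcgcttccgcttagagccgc
Mrps9: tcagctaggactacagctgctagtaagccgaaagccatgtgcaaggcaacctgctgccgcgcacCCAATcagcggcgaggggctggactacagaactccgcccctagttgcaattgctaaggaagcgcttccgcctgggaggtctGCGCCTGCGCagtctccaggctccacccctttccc

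Other genes of the mitochondrial translation system were read from lists by role. Of 4 measured ribosomal proteins that carry other names, 2 rose: Chchd1, a small-subunit protein, from 8.18 and 8.54 to 9.34 and 9.19 (0.90, SE 0.14), and Dap3, a small-subunit protein that binds GTP, by 0.46. Dap3 was no longer past the threshold with PBS replicate 1 left out (adjusted p = 0.074), or likewise BLM replicate 1 (0.117) or BLM replicate 2 (0.0806). Of 10 translation factors 4 rose (40%), none fell (none at an unadjusted p under 0.05 either) and 6 did not pass. Their median was 0.11. Over all genes 15.2% rose and 10.1% fell. The translation factors that rose were the recycling factor gene Mrrf at 0.68 and the elongation factor genes Tufm at 0.66 and Gfm1 at 0.65. The fourth was Tsfm, the exchange factor of Tufm, at 0.56. Mrrf and Tsfm lost their calls without BLM replicate 1, at differences of 0.57 and 0.51.

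Among 24 genes of ribosome assembly and ribosomal RNA modification, 5 rose (20.8%), 2 fell (8.33%) and 17 did not pass, with a median of 0.18; of all genes 15.2% rose and 10.1% fell. The helicase gene Ddx28 rose by 0.86, the GTPase gene Noa1 by 0.79, the RNA-binding Fastkd2 by 0.69 and the assembly factor Rbfa by 0.58. Ddx28 was no longer past the threshold with BLM replicate 2 left out (adjusted p = 0.0656) and Rbfa with the mean of its array rows (0.0867). The fifth, C1qbp, at 0.43, lost its call in all 4 fits that left an array out, and 3 of the 24 rose without BLM replicate 2. The 2 that fell were Mpv17l2, at -0.56, and the ribosomal RNA methyltransferase Nsun4, at -0.45. The call of Nsun4 ended in all 4 fits that left an array out (adjusted p up to 0.104) and that of Mpv17l2 without PBS replicate 2, BLM replicate 1 or BLM replicate 2 (0.0612, 0.119 and 0.0959). With dim genes left out, 9 of the 21 that remained rose, and the share of all genes that rose was then 31.5%.

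Mitochondrial aminoacyl-tRNA synthetases, which charge the tRNAs used by these ribosomes, together with the amidotransferase, rose in 3 of 19 cases (15.8%, beside 15.2% of all genes) and fell in 1, with a median of 0.01. Yars2, Qrsl1 and Gatc rose by 0.61, 0.55 and 0.50, and Vars2 fell by 0.46. With BLM replicate 1 left out each of these 4 calls ended (adjusted p of 0.0559, 0.0878, 0.0737 and 0.0996), those of Gatc and Vars2 also without BLM replicate 2 (0.0679 and 0.0816), that of Qrsl1 without PBS replicate 2 (0.0607) and that of Vars2 without PBS replicate 1 (0.0644). Of 11 genes that transcribe or maintain mitochondrial DNA, 3 rose (27.3%) and 2 fell (18.2%). Slirp, which stabilises mitochondrial messenger RNA, rose by 1.05 (SE 0.16) and the elongation factor Tefm by 0.62, while Polg2, a subunit of the mitochondrial DNA polymerase, fell by 1.42 (SE 0.09), from 8.39 and 8.49 to 7.07 and 6.97. Tefm was no longer past the threshold without PBS replicate 1 or BLM replicate 1 (0.0649 and 0.0856). Lrpprc, the partner of Slirp, at 0.32, and the polymerase subunit Polg, at -0.33, lost theirs in all 4 fits that left an array out. Both also lost them with the replicate block (adjusted p = 0.0722 and 0.0864), and Lrpprc with median centring.

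Of 10 measured regulators of mitochondrial gene expression 2 rose (20%) and 1 fell (10%), beside 15.2% and 10.1% of all genes. Pprc1, a coactivator, was at 7.12 and 7.14 against 7.99 and 8.15 (0.93, SE 0.09), and the transcription factor gene Myc at 7.57 and 7.69 against 8.39 and 8.54 (0.83, SE 0.10). Ppargc1a, a related coactivator, fell by 0.61 (SE 0.11) and was no longer past the threshold with BLM replicate 1 left out (adjusted p = 0.08). Nrf1 itself was at 7.30 and 7.28 against 7.32 and 7.31, a difference of 0.03 (SE 0.08, adjusted p = 0.84). Thap11, Gabpb1, Gabpa and Yy1, of factors named above with a motif, did not pass in the limma fit either. Thap11 stood at 0.47 (adjusted p = 0.0649), Gabpb1 at 0.32 (0.0565), Gabpa at 0.26 (0.0804) and Yy1 at -0.21 (0.191). Thap11 passed with the replicate block (0.0322) and with dim genes left out (0.031), and also without PBS replicate 1, at a difference of 0.64. Oxa1l, the insertase that receives the new proteins, rose by 0.45. Its call ended without PBS replicate 1, BLM replicate 1 or BLM replicate 2. It also ended with the replicate block (0.0541), with median centring (0.0549) and with cyclic loess (0.0641). Of 10 genes of the mitochondrial stress response 3 rose and none fell in the limma fit (1 lower at an unadjusted p under 0.05), with Ddit3, a stress-induced transcription factor, at 0.85 (SE 0.10). The other two, the chaperone gene Hspa9 at 0.40 and the protease gene Clpp at 0.39, lost their calls in all 4 fits that left an array out (adjusted p up to 0.137 and 0.208) and with cyclic loess, Clpp also with median centring.

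**Figure D4:**
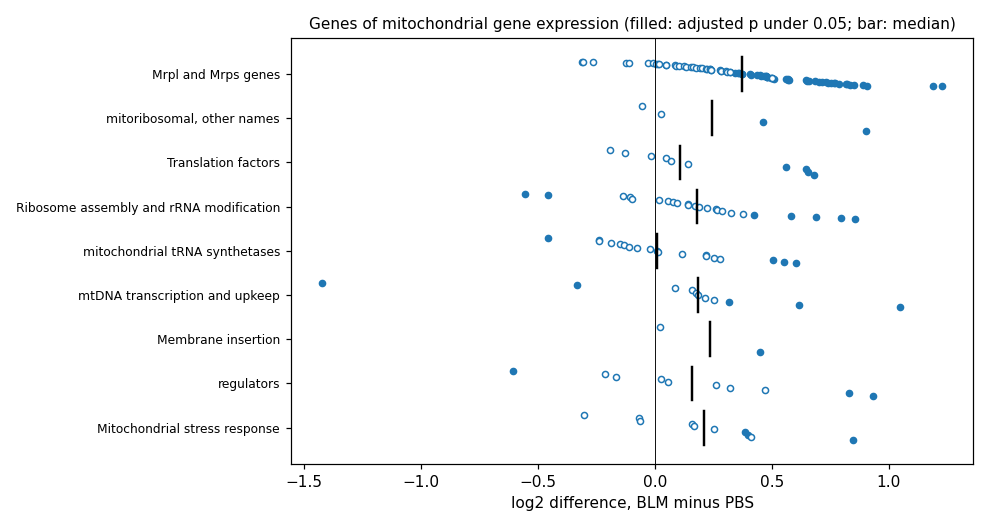
Log2 difference, BLM minus PBS, of the 79 members and of 8 lists of genes with related roles, 1 point a gene; filled points passed an adjusted p of 0.05 and black bars are medians. The members' median is 0.37, and that of the tRNA synthetases is 0.01.

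Of the closest families, the respiratory chain holds the products of mitochondrial translation and the cytosolic ribosome makes the nuclear-encoded proteins. Over all genes, 15.2% rose and 10.1% fell. Of 87 nuclear genes of respiratory chain and ATP synthase subunits, 55 rose (63.2%) and 1 fell, with a median of 0.40. Uqcrq, a subunit of complex III, rose the most, by 1.39 (SE 0.17). Of 39 cytosolic ribosomal protein genes measured alone on their row, 17 rose (43.6%) and none fell in the limma fit (1 lower at an unadjusted p under 0.05), with a median of 0.28, and Rpl12 rose by 1.23 (SE 0.10). Without BLM replicate 1, BLM replicate 2 or PBS replicate 1 the respiratory chain genes that rose were 22, 29 and 34 and the cytosolic ones 7, 8 and 9, and with cyclic loess 10 cytosolic genes rose and 2 fell. Without PBS replicate 2, 1 cytosolic gene fell. No test of the difference between families was run.

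**Figure D5:**
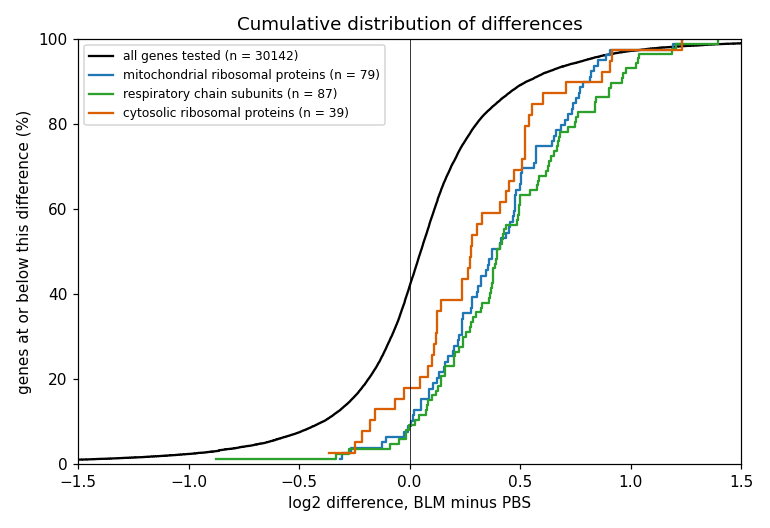
Cumulative share of genes (%) at or below each log2 difference, BLM minus PBS, for the 79 members, 87 respiratory chain subunits, 39 cytosolic ribosomal proteins and all 30142 genes. The curves of the 3 families lie to the right of that of all genes, with medians of 0.37, 0.40 and 0.28 against 0.05.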

How the data were processed

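Each deposited value is the log2 signal of a transcript cluster. The submitters' processing notes name RMA and Affymetrix Expression Console. RMA subtracts background, gives the arrays 1 common distribution and combines the probes of a cluster, and the sources used here give no version or array build and do not say whether values were rescaled afterwards. No detection calls were used, so dim genes stayed in the test. The number of arrays limits the precision.

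Rows with exactly 1 gene symbol were kept, 827 symbols were updated through Entrez identifiers (among the members, Ict1 to Mrpl58), and the row with the highest mean was taken for each gene, leaving 30142 genes. No member had a second such row. Mrpl30, Mrpl53 and Mrps6, the other 3 of 78 protein-coding symbols of this form in RefSeq, share their row with another gene and were not tested.

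BLM and PBS were compared with limma 3.58.1 in R 4.3.3 (lmFit, eBayes, two-sided), with p-values adjusted across the 30142 genes by the Benjamini-Hochberg method. Rose, fell and passed refer to an adjusted p under 0.05. Differences are BLM minus PBS on the log2 scale with their standard error (SE), n = 2 arrays a group. The replicate numbers did not pair the arrays (correlation of deviations over genes 0.01). Named members were the 10 highest and 10 lowest differences past the threshold, a panel of 10 genes and members whose call changed under an alternative, with others, such as those of head-to-head pairs, chosen after their values were seen; for related lists, up to 4 passing genes with the largest differences, and others chosen after their values were seen. Members and lists were chosen with earlier results of these data known.

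Alternatives were the replicate block, leaving out each array, leaving out genes below the median level, the mean of a gene's rows, a trended robust prior, median centring and cyclic loess. Leaving out the 4 pseudogenes, and the count by NRF1 match under each alternative, and the counts by descent, motif and head-to-head pair without each array, were added after seeing the data. Promoters are RefSeq's (GRCm38.p6).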

Additional observations from a re-analysis of the deposited data

Results flagged for a closer look

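Array rows that name a member together with another gene were outside the test. In 3 of these 4 rows both BLM arrays lay above both PBS arrays. The row of Mrpl30 and Gm6238 was at 6.15 and 6.52 on PBS and at 6.81 and 6.80 on BLM, a difference of 0.47. The row of Slc5a3 and Mrps6 was at 7.95 and 8.02 against 8.33 and 8.40, a difference of 0.38. A second row of Mrps18b, shared with Gm16279, was at 5.59 and 5.67 against 5.87 and 5.71, a difference of 0.16. These differences have no test, and the row of Ccdc142 and Mrpl53, at -0.06, showed overlapping groups.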

How the results depend on the processing

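The number of members that rose, 44, ranged from 14 to 29 when 1 array was left out, and their median, 0.37, from 0.36 to 0.43. It was 38 with the replicate block, 38 with median centring, 33 with cyclic loess, 45 with dim genes left out, 44 with the mean of a gene's rows and 44 with the trended robust prior. The median was 0.29 with cyclic loess. The number that fell, 1, was 0 in each fit without 1 array and 0 with the replicate block, 2 with dim genes left out, 2 with the trended robust prior and 3 with cyclic loess. The number of all genes called, 7629, ranged from 4003 to 5956 without 1 array. A fit without 1 array has fewer samples and takes its spread from 1 pair. For the 47 members followed singly, 370 of 468 comparisons with an alternative kept direction and side of the threshold, 93 lost the call, 5 gained it and none turned direction. Of the 370, 47 came from the mean of a gene's rows, which left each member's values unchanged. The replicate numbers are shared labels without a known pairing. As a block they left 6742 genes called and ended the calls of Mrpl24 (adjusted p = 0.0823), Mrpl3 (0.0717), Mrps12 (0.0575), Mrps18c (0.0563) and Mrps36 (0.0782) among the members named. With 2 arrays a group, the smallest difference called over all genes was 0.29 log2 units, and Mrpl36, Mrpl41 and Mrps28 lie below the median level of all genes.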
